A study of Rattus norvegicus with 17 samples.

Results

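Retinoic acid is made from vitamin A inside cells and acts by binding receptors that sit on DNA. The genes described here are 9 of the 34322 in the count table, chosen by symbol for their place in that pathway: Aldh1a2, which makes retinoic acid from retinal, Rbp4, the carrier of retinol in blood, Crabp1 and Crabp2, which bind retinoic acid in the cytoplasm, Cyp26b1, which breaks it down, and the receptors Rara, Rarb, Rxra and Rxrg. All 9 were in the table, had counts in every library and passed the filter on low counts in each comparison.

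Retinoic acid is an early signal in the patterning of the hindbrain and spinal cord, and in the adult brain it is known for a part in synaptic scaling and in the neuron progenitors of the dentate gyrus. Retinoic acid receptors pair with RXR receptors on response elements in DNA, and Cyp26 enzymes clear the ligand, so that its level is set by synthesis and removal together. In the brain the meninges, the thin covering of fibroblasts around the tissue, are a known site of Aldh1a2.

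RNA came from the hippocampus of Long-Evans rats aged 36 to 38 days, the offspring of dams in 3 diet groups. Ethanol-exposed rats (ET) came from a dam given liquid diet with 6.7% ethanol on gestational days 0 to 20, pair-fed rats (PF) from a dam given a liquid diet in matched amounts, and ad libitum rats (AD) from a dam with free access to chow. From 1 litter per group, 5 ET, 6 PF and 6 AD libraries were sequenced, so diet and litter cannot be told apart, and p-values measure only the spread between the sampled littermates. The right hippocampus was used for 4 animals and the left for 13, and every dam was back on free feeding with a diet without ethanol from gestational day 20. Libraries held 10853947 to 17498392 averaged fragments, with a median of 13538433.

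The main comparisons used 14 libraries (4 ET, 5 PF, 5 AD), with the sexes pooled within a diet. By label these were 2 females and 2 males in ET, 3 females and 2 males in PF, and 2 females and 3 males in AD. All 4 ET libraries were left hippocampi, while PF replicates 1 and 6 and AD replicate 3 were right, so side is partly mixed with diet. The study left out 3 libraries, ET replicate 2, the PF animal 11f6 and AD replicate 4, as outliers along the first axis of a principal component analysis. By the counts read here, these 3 were rich in choroid plexus RNA. Transthyretin (Ttr), the leading secretory product of that epithelium, was at 87540 to 112000 normalized counts there against at most 14600 in the others. A normalized count is a count scaled to the mean effective library size, so that libraries can be compared, but levels of different genes cannot be, because gene lengths were not used. Among the 14, the choroid plexus sum over 15 markers, of which Enpp2 had the highest mean over the 14, was highest in PF replicate 2 at 24440 and ET replicate 1 at 21530, and a sum of 14720 over 9 pineal markers, led by Tph1, stood in AD replicate 6. The summed level of 10 hippocampal neuron markers, led by Wfs1, was 8398 to 16110 in the 14, with 1 marker at 0 in AD replicate 3. Summed markers of thalamus and habenula, led by Ntng1, ran from 2303 to 4959, of striatum, led by Pde10a, from 3011 to 5255, and of interneurons, led by Gad1, from 9500 to 11690. Sex-linked genes matched the sex labels in 15 of 17 libraries, and the other 2 were AD replicates 1 and 2, which enter no comparison of the sexes.

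One response element lies near the start of a member. Rarb, a receptor that is itself a target of retinoic acid, holds a DR5 element, a pair of half-sites in the same orientation with 5 bases between them, and it is shown because it is the textbook element for retinoic acid control of this gene. RefSeq promoter windows of 300 bases (GRCr8) matched 9 of 9 members. The half-site searched, on both strands, was AGGTCA. Its variants with another base at the first or the third place were accepted too. One of these reads GGGTCA. The Rarb element uses the other 2 forms, GGTTCA on its left and AGTTCA on its right. A DR5 was found in 0.382% of 33469 promoters, a DR1 in 0.233%, a DR2 in 0.17% and a single half-site in 44.4%, which counts the half-sites inside the repeats too. Of the members, Rarb had the DR5, and Rarb and Rara had a half-site. The Rarb stretch lies at chr15:11336410-11336439 on the plus strand, and capitals mark the half-sites.

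Rarb: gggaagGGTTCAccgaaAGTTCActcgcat

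Such a match is a description of letters, and binding in these samples was not measured. The build of this window differs from the assembly on which the counts were made.

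No member passed the threshold (adjusted p under 0.01 and a log2 fold change over 1.5 in size) in any of the 3 diet comparisons, by edgeR's quasi-likelihood test. For all genes tested that share was 2.17% in ET against PF, 0.0127% in ET against AD and 2.05% in PF against AD. At an unadjusted p below 0.05 the members numbered 2 of 9 in each comparison, against 11.9%, 2.74% and 16.4% of all genes. At the looser rule of adjusted p below 0.05, 0 members were called in ET against PF (4.13% of genes), 0 in ET against AD (0.0127%) and 1 in PF against AD (5.17%), the retinoic acid-degrading enzyme Cyp26b1. With all 17 libraries at that rule, Cyp26b1 was the 1 member called in ET against PF (5.46% of genes), and 0 were called in PF against AD (6.19% of genes). In no diet comparison of the 14 libraries were the groups of a member without overlap, while 6.76%, 1.21% and 6.62% of genes were so. The median log2 fold change of the 9 members was 0.06, -0.12 and -0.17 in ET against PF, ET against AD and PF against AD, against 0.00534, 0.0028 and -0.00287 over all genes.

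**Figure D1:**
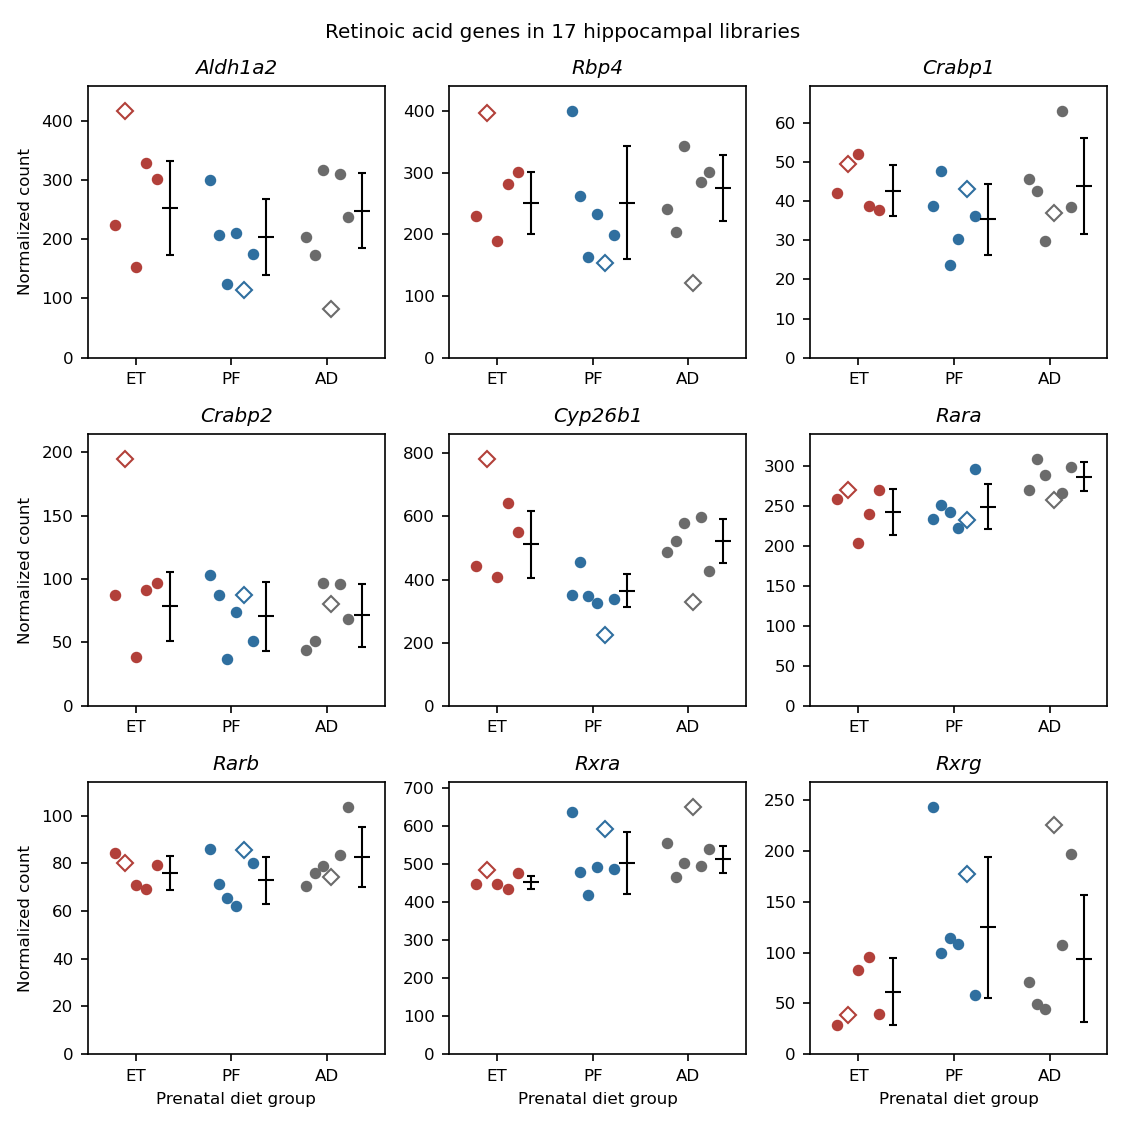
Normalized counts of the 9 genes (vertical axis, each from 0) in every library by diet group. Filled circles are the 14 libraries compared, open diamonds the 3 rich in choroid plexus RNA, and black bars the mean ± SD of the filled points; Cyp26b1 has its lowest mean in the PF group (364), and Rxrg has the widest bars for its level.

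Aldh1a2, the retinaldehyde dehydrogenase of the meninges and embryo, had normalized counts of 223, 153, 329 and 302 in ET replicates 1, 3, 4 and 5. In PF it stood at 210 in animal 11f5 and at 300, 207, 124 and 175 in replicates 1, 2, 3 and 6, and in AD at 204, 173, 317, 310 and 238 in replicates 1, 2, 3, 5 and 6. The 3 groups overlapped over most of their range, and the log2 fold change of ET against PF was 0.31 (SE 0.26, unadjusted p = 0.264, adjusted p = 0.8). It was 0.16 without ET replicate 4, 0.49 without PF replicate 1 and 0.59 with all 17 libraries (adjusted p = 0.356). ET and AD were closer, at 0.02 (SE 0.24), and PF against AD was -0.28 (SE 0.22, adjusted p = 0.595).

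Rbp4, which carries retinol through blood and is made in liver and elsewhere, reached its highest level in PF replicate 1 at 401 normalized counts and its lowest in PF replicate 3 at 164. ET libraries held 190 to 301 and AD libraries 205 to 343. The means were 251 ± 50.7 (SD, n = 4) in ET, 252 ± 91.3 (SD, n = 5) in PF and 275 ± 53.7 (SD, n = 5) in AD, and no diet difference was larger than the spread between libraries.

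Crabp1 and Crabp2 deliver or hold retinoic acid in the cytoplasm, Crabp2 for its passage to receptors. Crabp1 was low, at 42.7 ± 6.6 (SD, n = 4) normalized counts in ET, 35.4 ± 9.03 (SD, n = 5) in PF and 44 ± 12.3 (SD, n = 5) in AD. Crabp2 was at 78.4 ± 27 in ET, 70.5 ± 26.9 in PF and 71.4 ± 24.7 in AD. In ET, 1 library, replicate 3, lay at 38.5 while the other 3 were 87.2 to 97.1, and in PF replicate 3 was lowest at 36.6. The ET against PF log2 fold change was 0.28 (SE 0.19, adjusted p = 0.704) for Crabp1 and 0.15 (SE 0.32, adjusted p = 0.951) for Crabp2.

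Cyp26b1 encodes the cytochrome P450 that oxidizes retinoic acid to inactive products. In PF the normalized counts were 326 (11f5), 352, 456, 349 and 338 (replicates 1, 2, 3 and 6). In AD they were 488, 523, 579, 599 and 427 (replicates 1, 2, 3, 5 and 6), and in ET 442, 410, 644 and 551 (replicates 1, 3, 4 and 5). Of the PF libraries only replicate 2 lay above the lowest AD or ET library. PF was 364 ± 52.1 (SD, n = 5), AD 523 ± 69.3 (SD, n = 5) and ET 512 ± 107 (SD, n = 4). PF fell below AD by 0.52 on the log2 scale (SE 0.11), a ratio of 0.697, with an unadjusted p of 0.000407 and an adjusted p of 0.0114.

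Cyp26b1 in ET against PF differed by 0.49 on the log2 scale (SE 0.14, a ratio of 1.4), with an unadjusted p of 0.00595 and an adjusted p of 0.112. In ET against AD the log2 difference was -0.04 (SE 0.14, unadjusted p = 0.803). The PF against AD and ET against PF comparisons share the PF libraries. Leaving out each library in turn kept the PF against AD difference at -0.61 to -0.47 with an adjusted p of 0.00161 to 0.0379, and it was past 0.05 in 10 of 10 fits. With all 17 libraries the adjusted p was 0.0837 at a log2 difference of -0.53, with AD at 491 ± 101 and PF at 341 ± 74 (SD, n = 6 each), and in left hippocampi alone it was 0.136 at -0.43. For ET against PF, all 17 libraries gave an adjusted p of 0.0395 at 0.73, and DESeq2 on the 14 libraries gave 0.0394 at 0.49. Without ET replicate 3 the adjusted p was 0.0451 at 0.58.

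**Figure D2:**
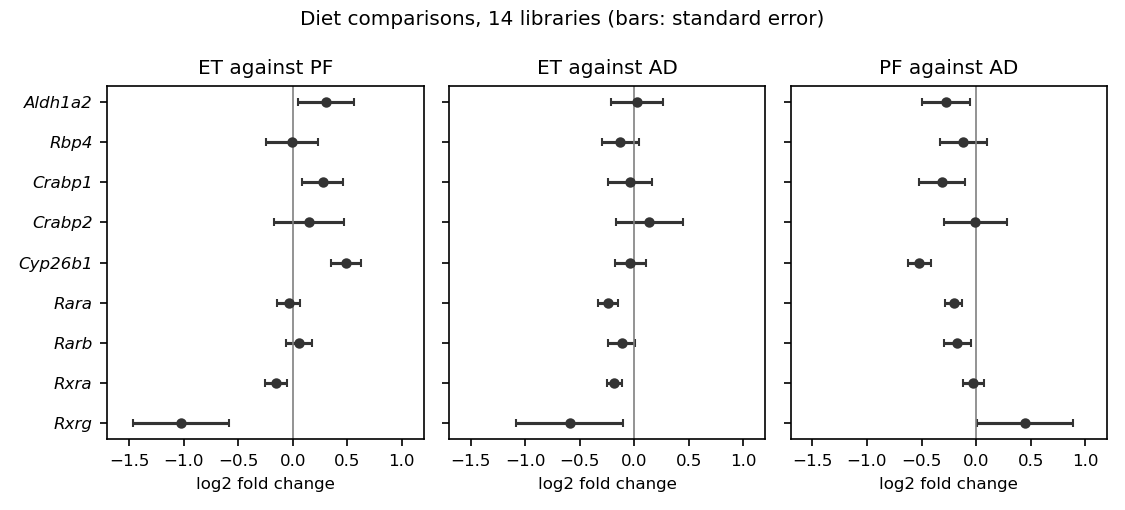
Log2 fold change of each member in the 3 diet comparisons of the 14 libraries, with bars of 1 standard error and the grey line at 0. Cyp26b1 is above 0 in ET against PF (0.49) and below it in PF against AD (-0.52), and Rxrg has the widest bars.

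The receptors varied less, with the exception of Rxrg. Rara, the receptor found in most tissues, was at 243 ± 29 in ET, 250 ± 28.1 in PF and 287 ± 18.3 in AD (SD, n = 4, 5 and 5). ET was lower than AD by 0.24 on the log2 scale (SE 0.09, unadjusted p = 0.0222, adjusted p = 1), and PF lower than AD by 0.20 (SE 0.08, unadjusted p = 0.0233, adjusted p = 0.206). AD libraries spanned 267 to 309 and ET libraries 204 to 270, so the groups met only at their edges. Rara overlaps 2 other annotated genes in RefSeq, so its counts may include fragments shared with them. Without PF replicate 6, the PF library with the highest Rara at 296, the adjusted p of PF against AD was 0.0262 at -0.27.

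Rarb, the receptor with the element shown above, was at 75.9 ± 7.06 in ET, 73 ± 9.88 in PF and 82.6 ± 12.7 in AD. Its log2 fold changes were 0.06 (SE 0.12) in ET against PF, -0.12 (SE 0.13) in ET against AD and -0.17 (SE 0.13) in PF against AD, with unadjusted p of 0.632, 0.373 and 0.195. Rxra, an obligate partner of many nuclear receptors, had levels of 435 to 477 in the 4 ET libraries, 420 to 638 in PF and 467 to 557 in AD. ET was lower than AD by 0.18 (SE 0.07, unadjusted p = 0.0186, adjusted p = 1).

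Rxrg, an RXR with restricted expression in the brain, was the most variable member. Its coefficient of variation over the 14 libraries was 63.1%, above that of 97.6% of the 15309 genes with a mean CPM of at least 1. ET libraries held 28.5, 82.4, 96.2 and 39.0 normalized counts. PF held 108 (11f5), 243, 99.2, 114 and 58.4, and AD 71.0, 49.4, 44.9, 107 and 197, the last in AD replicate 6, the library with the high pineal sum. The ET against PF log2 fold change was -1.03 (SE 0.44), with an unadjusted p of 0.0415 and an adjusted p of 0.383. The size depended on single libraries: it was -0.63 without PF replicate 1, the library at 243, and -1.31 without ET replicate 4. With all 17 libraries it was -1.22 (unadjusted p = 0.00871, adjusted p = 0.12). The PF and ET groups overlapped between 58.4 and 96.2. PF against AD was 0.45 (SE 0.44, adjusted p = 0.684) and ET against AD -0.59 (SE 0.49). Without AD replicate 6 these were 0.90 and -0.13.

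The other members varied less than Rxrg. Crabp2 had a coefficient of variation of 33.2%, Aldh1a2 28.8%, Rbp4 24.9%, Crabp1 24.4% and Cyp26b1 22.5%, while Rarb had 13.5%, Rara 11.8% and Rxra 11.4%. Of the same 15309 genes, 63.7% had a lower coefficient than Rarb, 55.9% than Rara and 54% than Rxra.

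Aldh1a2, Rbp4, Crabp2 and Cyp26b1 moved with the summed level of 15 meningeal fibroblast markers, led by Igf2. That sum was 4384 to 8649 in ET, 3819 to 7021 in PF and 5404 to 8346 in AD, and no marker was at 0 in all libraries of a group. Over the 14 libraries the Pearson correlation of log2 levels with the log2 sum was 0.961 for Aldh1a2, 0.861 for Crabp2, 0.823 for Rbp4 and 0.756 for Cyp26b1. The permutation p (100000 resamples, two-sided) was 1e-05, the smallest these can give, for Aldh1a2, then 0.00011, 0.00037 and 0.00216 in that order, and adjusted over the 9 relations 9e-05, 0.000495, 0.00111 and 0.00486. The Spearman rho was 0.925, 0.881, 0.785 and 0.793, with permutation p of 1e-05, 6e-05, 0.00158 and 0.00125, and adjusted p of 9e-05, 0.00027, 0.00356 and 0.00356. Without the 2 libraries farthest from the median sum, ET replicate 4 and PF replicate 3, r was 0.942, 0.826, 0.802 and 0.656. After each diet mean was taken out it was 0.958, 0.918, 0.853 and 0.745. No diet holds 6 libraries, so r was not computed within diets.

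For the other 5 members the relation did not pass the test. By the same correlation with 10000 resamples, 6.39% of 15294 genes had a permutation p below 0.05, and 4 of the 9 members did. Pearson r was 0.273 for Crabp1, 0.157 for Rara, 0.281 for Rarb, 0.253 for Rxra and -0.0523 for Rxrg. Their unadjusted permutation p were 0.349, 0.59, 0.335, 0.392 and 0.857, and adjusted 0.504, 0.664, 0.504, 0.504 and 0.857. Spearman rho was 0.191, 0.0857, 0.345, 0.218 and -0.125 in the same order, with permutation p of 0.511, 0.772, 0.227, 0.455 and 0.669, and adjusted p of 0.657, 0.772, 0.409, 0.657 and 0.753. Without the same 2 libraries r was 0.0107, 0.205, 0.294, 0.273 and -0.00907.

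**Figure D3:**
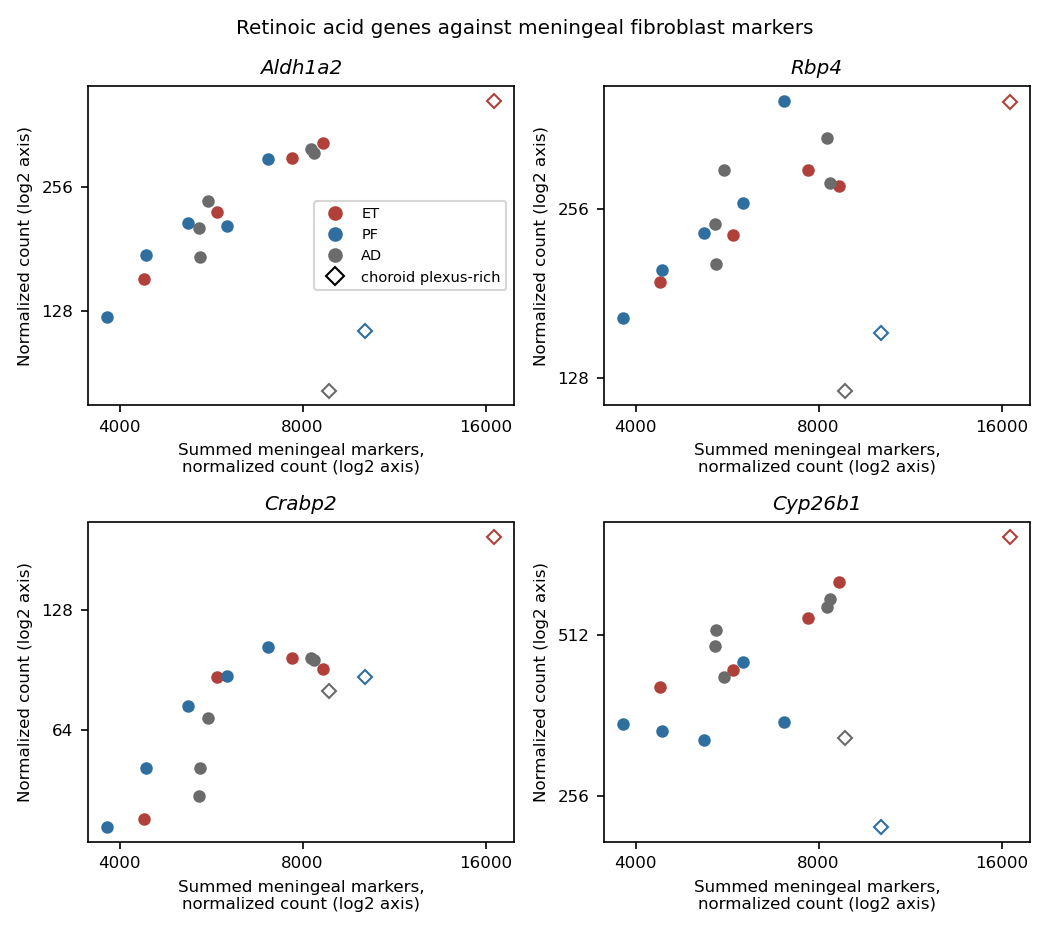
Normalized counts of Aldh1a2, Rbp4, Crabp2 and Cyp26b1 (log2 vertical axis) against the summed meningeal markers (log2 horizontal axis) in each library. Filled circles are the 14 libraries compared, open diamonds the 3 rich in choroid plexus RNA. The circles rise together, and the 3 diamonds lie to the right of every circle. For Aldh1a2, Rbp4 and Cyp26b1 the PF and AD diamonds lie below the circles with the highest sums. For Aldh1a2 the ET diamond is at 417 at a sum of 16550, against 329 at 8649 in ET replicate 4. No line was fitted. In the diamonds Igf2 alone is 5818 to 8566 of the sum.

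The median meningeal sum was 5177 in PF, 5592 in AD and 6736 in ET, and the PF range (3819 to 7021) overlapped the AD range (5404 to 8346). For Cyp26b1 the log2 sum was also used as a covariate, an alternative added after the data were seen. The PF against AD difference of Cyp26b1 was then -0.41 (adjusted p = 0.0528), and ET against PF was 0.33 (adjusted p = 0.285). With the choroid plexus sum as the covariate instead, PF against AD for Cyp26b1 was -0.60 (adjusted p = 0.00257). In most of the 14 libraries that sum rests largely on Enpp2. The median over the 14 was 3505 for Enpp2, 849 for Ttr and 4627 for the sum. In bulk tissue, fewer cells of a type and less RNA per cell cannot be told apart.

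Genes whose pattern was nearest to each member were ranked by Pearson r of log2(CPM + 1) among 15309 genes over the 14 libraries, as a description, since all share the same libraries. Aldh1a2 was nearest to Bmp6 (0.97), Col1a2 (0.96) and Angptl2 (0.94). Rbp4 was nearest to Ptgds (0.93), Col6a2 (0.92) and Slc6a13 (0.91), and Crabp2 to Foxc1 (0.93), Slc22a6 (0.92) and Ptgds (0.90). Col1a2 and Col6a2 encode collagen chains, and Foxc1 a transcription factor of meningeal development. Cyp26b1 was nearest to Pcdh12 (0.91), Cpz (0.89) and Zfp40 (0.86). Rxrg was nearest to Wdr6 (0.90), Ctbp2 (0.88) and Hhipl1 (0.85), and Rxra to Mtss2 (0.85), Fgfr3 (0.82) and Ly6h (0.80). For Rara they were Tm7sf2 (0.84), Frs3 (0.83) and Ocel1 (0.82), for Rarb Yif1a (0.87), Laptm4b (0.87) and Sil1 (0.86), and for Crabp1 Lpcat3 (0.75), Zfp143 (0.75) and Pofut2 (0.74).

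The libraries rich in choroid plexus RNA did not share 1 pattern over the members. In ET replicate 2, Aldh1a2 (417), Rbp4 (398), Crabp2 (195) and Cyp26b1 (782) all lay above every other ET library, at 1.55 to 2.19 times the ET median. In PF animal 11f6, Aldh1a2 (115), Rbp4 (154) and Cyp26b1 (224) lay below every other PF library, and in AD replicate 4 Aldh1a2 (82.0), Rbp4 (121) and Cyp26b1 (329) lay below every other AD library, at 0.345 to 0.661 times the median of their diet over both animals. Aldh1a2 was the highest of 17 in ET replicate 2 and the lowest of 17 in AD replicate 4. Rxrg was 38.3 in ET replicate 2, 177 in PF animal 11f6 and 226 in AD replicate 4, the last 3.19 times the AD median, and Rxra was 485, 593 and 650. In the same libraries the meningeal sum was 16550, 10140 and 8852, and the choroid plexus sum 134900, 145000 and 157300. Igf2 alone made up 8566, 6313 and 5818 of the meningeal sum, and the other markers did not move as 1. In AD replicate 4, Slc6a13 (62.9) and Col1a1 (422) were the lowest of the 17 libraries. Dcn (463) and Islr (314) lay above every other AD library there. Crabp2 (1.17 to 2.19 times) and Rxra (1.08 to 1.29 times) lay above the diet median in all 3 libraries, where Ttr was 65.5 to 315 times its diet median. A correlation with the choroid plexus sum was not computed, since these libraries form a separate cluster.

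**Figure D4:**
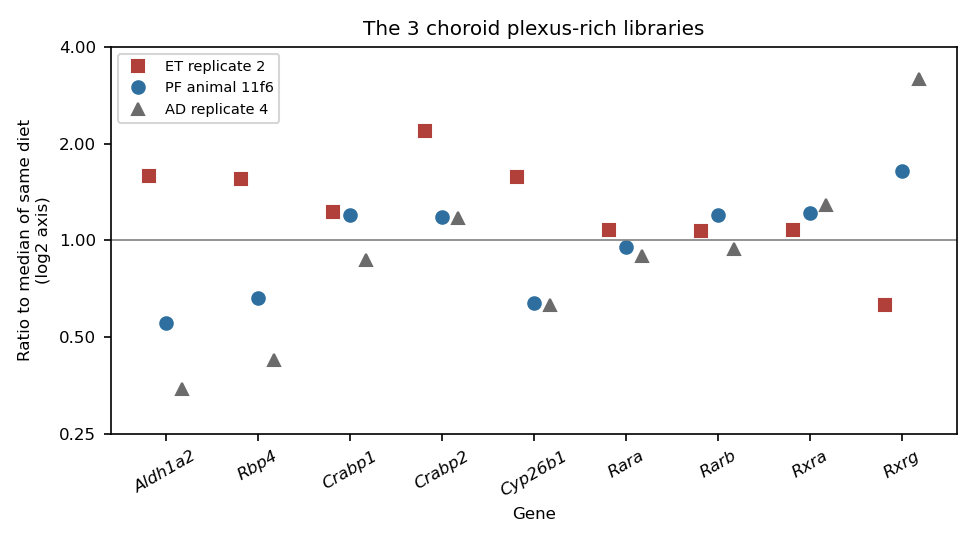
Each member's normalized count in the 3 choroid plexus-rich libraries divided by the median of the other libraries of the same diet (log2 axis, grey line at 1). Aldh1a2, Rbp4 and Cyp26b1 are high in ET replicate 2 and low in the PF and AD libraries, and Rxrg is the reverse.

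Comparing males with females over ET and PF, with diet as a covariate, 0 of 9 members passed the threshold (0.0311% of genes did) 0 had an adjusted p below 0.05 (0.0436% did) and 0 an unadjusted p below 0.05 (1.87% did). The sizes ran from -0.40 (Rxrg, SE 0.45) to 0.27 (Aldh1a2, SE 0.27) on the log2 scale. For the interaction of sex with diet, by adjusted p alone, no gene of 16484 was called by edgeR at 0.01 or at 0.05, and 1.4% had an unadjusted p below 0.05. Of the members only Cyp26b1 did, with an interaction of 0.70 on the log2 scale (SE 0.20, unadjusted p = 0.0072, adjusted p = 1).

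Cyp26b1 held 410 and 442 in the 2 ET females against 551 and 644 in the 2 ET males, and 349 to 456 in 3 PF females against 326 and 338 in 2 PF males. So the ET males lay above every ET female, and the PF males below every PF female, in groups of 2 to 3 animals, where 1.39% of 15309 genes had the sexes apart in opposite directions in ET and PF. The interaction was largest for Rxrg, at 1.13 (SE 0.88), and it was 0.87 (SE 0.47) for Aldh1a2, 0.83 (SE 0.45) for Rbp4 and 0.85 (SE 0.66) for Crabp2. Of the others, Crabp1 was at -0.16, and Rara, Rarb and Rxra were at 0.05, 0.00045 and 0.09. In the same fit 7 of 15 meningeal markers had an unadjusted p below 0.05, all with an interaction above 0, where 1.4% of all genes did. No gene was called there after adjustment. The markers come from the same libraries, so they are not 7 separate observations. Among the libraries left out, the ET male held 782 and the PF male 224. Whether the meningeal markers have a part in the interaction of Cyp26b1 was not tested.

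**Figure D5:**
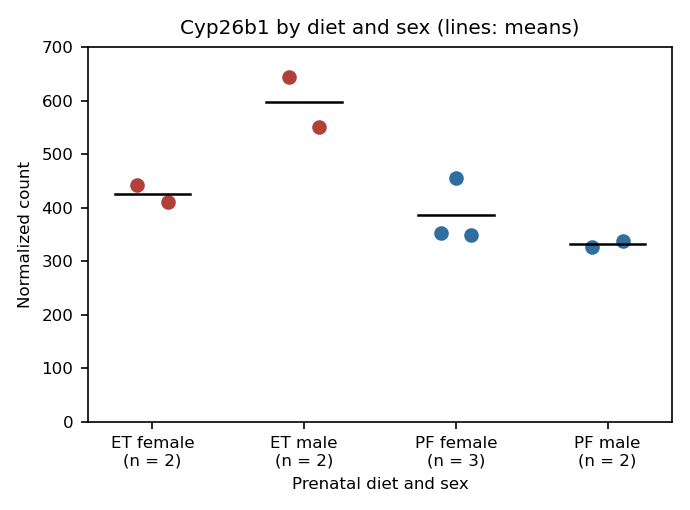
Cyp26b1 normalized counts in ET and PF animals by sex, with lines at the group means (426 and 597 in ET females and males, 386 and 332 in PF). Each point is 1 library; the ET males are highest and the PF males lowest.

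Other genes of the pathway were counted in 4 lists. Of 29 enzymes of retinoid metabolism, 16 were tested, of 13 carriers and uptake genes 8, of 17 receptor partners and cofactors 17, and of 18 response genes 14 (13 in ET against AD). At an adjusted p below 0.05 only Dhrs9, an enzyme that oxidizes retinol, was called, where 5.17% of all genes were called in that comparison. It was higher in PF than in AD by 0.88 on the log2 scale (SE 0.15, adjusted p = 0.0436). Its levels were low: 12.2, 14.4, 12.4, 13.1 and 13.9 in PF against 6.24 to 8.87 in AD, with 3.35 to 12.9 in ET. All 5 PF libraries lay above all 5 AD libraries, as the groups of 6.62% of all genes were apart, but PF animal 11f6, which is not among them, was at 7.80, inside the AD range.

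Tgm2, a transglutaminase induced by retinoic acid, was at 162 to 253 in PF, 235 to 305 in AD and 239 to 279 in ET. It was lower in PF than in AD by 0.43 (SE 0.12, adjusted p = 0.0538) and 0.34 higher in ET than in PF (SE 0.12, adjusted p = 0.226). Nr2f2, the COUP-TFII receptor, was at 214 to 648 in PF and 146 to 283 in ET, a log2 difference of -0.77 (SE 0.30, adjusted p = 0.325). Rlbp1, a retinal-binding protein, differed by 0.18 (SE 0.07, adjusted p = 0.346) in ET against PF, and Fabp5, a fatty acid-binding protein that also takes retinoic acid, by 0.21 (SE 0.06, adjusted p = 0.0876) in PF against AD. In ET against AD the smallest p belonged to Rarres1 (-0.51, SE 0.19), Nr4a2 (-0.52, SE 0.23) and Rarres2 (-0.22, SE 0.10), each with an adjusted p of 1.

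Among the lists, the highest mean levels over the 14 libraries were those of Adh5 (714), Aldh1a1 (552) and Rdh11 (537) among enzymes, Lrp1 (7878), Lpl (1017) and Fabp5 (546) among carriers, Ncoa1 (3204) and Ncor1 (2598) among cofactors, and Nrgn (13500), Pdgfra (1664) and Rai1 (996) among response genes, in normalized counts that are not scaled by gene length. Hoxb1, a hindbrain gene that retinoic acid induces in the embryo, had 0 counts in all 14 libraries and was not detectable at this depth. At an unadjusted p below 0.05 the counts were 1, 1, 1 and 2 in ET against PF for enzymes, carriers, cofactors and response genes, where 11.9% of all genes were. They were 0, 0, 1 and 1 in ET against AD (2.74% of all genes) and 2, 2, 3 and 4 in PF against AD (16.4% of all genes).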

How the data were processed

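RNA was extracted from frozen hippocampus, and stranded mRNA libraries were sequenced with 3 technical replicates per sample. The authors filtered reads with fastp 0.23.2, mapped them to mRatBN7.2 with Bowtie2 2.4.2 under default options, and counted fragments per gene with featureCounts 2.0.1 at a mapping quality of at least 10, letting reads count for multiple features; the strand setting is not given in the sources used here. The authors deposited expected counts: averages of the technical replicates, of which 53.3% were whole, not normalized. All sample columns were used.

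Averages were rounded, genes with low counts removed (filterByExpr), and libraries scaled by TMM over the groups compared. Groups were taken from the labels; the PF animals 11f5 and 11f6 keep their animal names because the labels do not tie them to a replicate number. The 14 libraries compared are those of the study's final analysis. Pairs of diets were fitted in R 4.3.3 by edgeR 4.0.16 (glmQLFit, glmQLFTest), with Benjamini-Hochberg adjustment over every gene that passed the filter. Calls needed an adjusted p under 0.01 and, but for the interaction of sex and diet, a log2 fold change over 1.5 in size. Standard errors (SE) were taken as that size over the square root of F. Totals ran from 10853947 to 17498392 per library. The fits were tested on simulated counts of ET against PF, with 200 genes changed by log2 fold changes beyond the threshold of 1.5. edgeR and DESeq2 each recovered 200, with 1 and 3 false calls, and made 0 and 2 false calls where no gene was changed. The changed genes were drawn from those with higher counts, and their changes were larger than that of any member in the main fits. Changes as small as those of the members were not simulated.

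The members and lists were chosen with earlier results of these data known. Genes named were the members, list genes at an adjusted p below 0.05 or among the 3 smallest p of a diet comparison, the 3 highest mean levels of each list, the 3 genes nearest each member, and leading markers; some list genes that the rule names are not reported here. Alternatives were DESeq2 1.42.0, median-of-ratios scaling, no filter, summed technical replicates, an absolute fold change above 1.5, 1 fit of the 3 diets, sex, choroid plexus or meningeal sums as covariates, the replicate block, left hippocampus only, all 17 libraries, and each library left out. No pair of libraries of 1 diet agreed within counting noise. In RefSeq (GRCr8), 8 of the 9 members overlap no other annotated gene, and Rara overlaps 2. Correlations and figures used Python 3.11.15, numpy 2.4.6, pandas 2.3.3, scipy 1.17.1 and matplotlib 3.10.9.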

Additional observations from a re-analysis of the deposited data

Results flagged for a closer look

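In 54 groups of 4 to 10 libraries, 2 values stood far from the rest of their group by Dixon's ratio, where chance gives about 1 in 20. Crabp2 was at 38.46 normalized counts in ET replicate 3, with the nearest ET library at 87.17 and a gap of 0.83 of the range (n = 4). Cyp26b1 was at 455.7 in PF replicate 2, with the nearest PF library at 352.1 and a gap of 0.798 of the range (n = 5). The meningeal sum was lowest of the ET group in ET replicate 3, at 4384, and PF replicate 2 had the highest choroid plexus sum of the 14 libraries, 24440. Their part in these values was not tested.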

How the results depend on the processing

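The count of members past the threshold was 0 in the 3 diet comparisons, between the sexes and for their interaction with diet, under every alternative that was run, leaving out each library included. DESeq2 too called 0 members in the diet comparisons and between the sexes. The count over all genes moved by more than 1.5 times under 2 settings: the replicate block gave 197 genes in ET against PF in place of 349, and no filter on low counts gave 493 in PF against AD in place of 327. The block moved Rxrg in ET against PF to -1.67 (adjusted p = 0.31). In ET against AD it gave 0 genes and the main fit 2. Replicate numbers are shared by different animals. Same-numbered samples had a mean correlation of deviations of 0.322 over 2 pairs in ET against PF (-0.00575 and 0.649), against -0.037 over 18 pairs of unlike number. The mean was -0.0561 over 3 in ET against AD (0.0188 over 17 of unlike number). In PF against AD it was 0.00486 over 4 (-0.00286 over 21 of unlike number). So few pairs cannot show whether the numbers pair animals. Under the block, the log2 difference of Cyp26b1 was -0.43 in PF against AD (adjusted p = 0.0455) and 0.28 in ET against PF (adjusted p = 0.584). Over the 13 alternatives other than leaving out a library, the adjusted p of Cyp26b1 ran from 0.000335 to 0.136 in PF against AD, below 0.05 in 8, and from 0.0394 to 0.584 in ET against PF, below 0.05 in 2. In PF against AD it was 0.0555 at -0.48 with all 17 samples and the choroid plexus covariate, and 0.0596 at -0.59 with all 17 and the meningeal covariate, which was chosen after seeing the data.

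Some differences of members changed sign under some settings, none of them past an adjusted p of 0.05, and the cause was not tested. Those of Aldh1a2 were among them, at 0.31 in ET against PF and -0.28 in PF against AD in the main fit. With all 17 samples the log2 difference was 0.25 for Rbp4 and 0.011 for Rara in ET against PF, 0.16 for Rbp4, 0.036 for Crabp1 and 0.20 for Cyp26b1 in ET against AD, 0.0079 for Crabp2 in PF against AD, and -0.0069 for Rbp4 and 0.035 for Rxra in males against females. Adding the choroid plexus covariate to all 17 gave 0.24 (Rbp4) and 0.0021 (Rara) in ET against PF, 0.20 (Rbp4), 0.037 (Crabp1) and 0.21 (Cyp26b1) in ET against AD, and 0.0036 (Rbp4) in PF against AD. The same covariate in the 14 gave 0.0035 (Rbp4) in ET against PF, -0.049 (Crabp2) and 0.035 (Cyp26b1) in ET against AD, and 0.0030 (Rxra) in PF against AD. Left hippocampi gave 0.19 (Rbp4) and 0.020 (Rara) in ET against PF and 0.034 (Crabp2) in PF against AD. The replicate block gave -0.094 (Aldh1a2) and -0.10 (Crabp2) in ET against PF, -0.31 (Aldh1a2), -0.10 (Crabp2) and 0.014 (Rarb) in ET against AD, and 0.091 (Crabp2) in PF against AD. Sums of technical replicates gave 0.00014 for Rbp4 in ET against PF, and sex as a covariate 0.011 for Crabp2 in PF against AD, a fit that uses the labelled sex of AD replicates 1 and 2, which sex-linked genes did not match. The meningeal covariate in the 14 gave -0.064 (Aldh1a2) and -0.26 (Crabp2) in ET against PF, and 0.068 (Aldh1a2), 0.16 (Rbp4), 0.46 (Crabp2) and 0.043 (Rxra) in PF against AD. In all 17 it gave 0.025 (Rbp4), -0.038 (Crabp2) and -0.0083 (Rarb) in ET against PF, 0.046 (Rbp4), 0.037 (Crabp1) and 0.084 (Cyp26b1) in ET against AD, and 0.22 (Crabp2) and 0.0082 (Rxra) in PF against AD. Leaving out 1 library at a time gave ranges that cross 0: in ET against PF, -0.0071 to 0.38 for Crabp2, -0.090 to 0.041 for Rara and -0.12 to 0.22 for Rbp4, in ET against AD, -0.13 to 0.20 for Aldh1a2, -0.15 to 0.12 for Crabp1 and -0.16 to 0.059 for Cyp26b1, in PF against AD, -0.18 to 0.15 for Crabp2, -0.35 to 0.00063 for Rbp4 and -0.13 to 0.029 for Rxra, and in males against females, -0.15 to 0.31 for Crabp2, -0.12 to 0.24 for Rbp4 and -0.093 to 0.065 for Rxra.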
